A study of Mus musculus with 12 samples.

Results

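The potassium channel genes are the mouse genes whose symbol is Kcn, then lower-case subfamily letters, then a number, with at least 500 non-CG cytosine calls in every one of 12 cortical bisulfite libraries. The pattern matched 92 symbols, and 90 of them, in 20 subfamilies, were members among the 19826 genes that met the same minimum. Kcna3 fell under it, with 379 calls in its thinnest library, while Kcnj11 and Kcnk7 stood just inside with 541 and 807 calls. Kcnh8 was left out because its identifier stood on 2 rows. The rule for members uses symbols and coverage and no methylation value.

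The measured quantity was the level of mCH, cytosine methylation outside CG dinucleotides, given as the percentage of methylated calls among all non-CG calls over a gene. All mice were C57BL/6 and all tissue was cortex. At postnatal day 40 (P40) there were 4 libraries labelled miR29 KO and 4 wild-type (WT) libraries. At 4 months there were 2 libraries labelled Dnmt3a mi5, whose titles read DNMT3AmiR29MUT, and 2 WT libraries whose titles read DNMT3AWT. The labels name no alleles, promoters or Cre drivers, and do not say whether a library came from 1 animal.

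Potassium channels pass potassium across the cell membrane. In neurons its outflow ends the spike and sets the resting potential, and in astrocytes its uptake through inward rectifiers helps to clear potassium released by firing. The family holds voltage-gated pore subunits, silent subunits that modify them, inward rectifiers, tandem pore leak channels, channels opened by calcium or sodium, and auxiliary proteins without a pore. In neurons mCH is written by the methyltransferase DNMT3A during postnatal life and builds up over gene bodies, where genes with high mCH tend to be weakly expressed. The miR-29 family of microRNAs represses Dnmt3a messenger RNA through target sites read by the microRNA seed.

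The 3 mature miR-29 microRNAs are shown because miR-29 is named in the labels or titles of both mutants and because they share the seed, bases 2 to 8 from the 5′ end, set in capitals. The sequences are from RefSeq, build GRCm38.p6.
mmu-miR-29a-3p: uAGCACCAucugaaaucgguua
mmu-miR-29b-3p: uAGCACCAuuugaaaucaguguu
mmu-miR-29c-3p: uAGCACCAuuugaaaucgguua
The seed AGCACCA was identical in all 3, and the differences lay downstream of it.

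The 4 miR-29 genes together had 26, 69, 54 and 6 calls in the KO libraries, against 224, 137, 121 and 244 calls in the P40 WT libraries. Total calls over genes ranged from 399563492 to 732985426 per library. A member had 1593 to 536568 calls in the mean library, with a median of 18275, against a median of 11244 over all genes tested. Counting error alone gave Kcna5, which had the fewest calls, a 95% Wilson interval of 1.02 to 2.09% around its level of 1.46% in the first P40 WT library, and Kcnip4, which had the most, 1.20 to 1.25% around 1.22%. Libraries of a group also differed by a shift common to most genes: the fourth KO library had a mean gene level of 1.72%, against 2.15 to 2.46% in the other KO libraries and 1.28 to 1.54% in P40 WT. In 4 libraries, 1 of each group, Y-linked genes were hardly covered. In the RefSeq gene order 9 members overlap another protein-coding gene and may share calls with it, among them Kcnab2 with Nphp4, Kcnj13 with Gigyf2, Kcnk7 with Ehbp1l1 and Kcnip1 with Kcnmb1.

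In WT cortex at P40 the potassium channel genes ranged from 0.450 to 3.13%, within the 0.136 to 6.55% of all genes tested, and subfamilies stood at different levels. The median member had a level of 1.47 ± 0.151% at P40 (SD over 4 library medians), against 1.31 ± 0.112% for the median of all genes tested. Among 9 pore subfamilies set by letter and not by size, the shaker-type Kcna genes were lowest, with a median of 0.976 ± 0.0358%. The inward rectifier Kcnj genes were highest of the 9, with 1.73 ± 0.179% (SD over 4 library medians). The Kcng genes, silent subunits outside the 9, had a higher median of 1.98 ± 0.225%. Kcnb, Kcnc, Kcnh and Kcnq had medians of 1.17, 1.18, 1.21 and 1.23%. Kcnd, Kcnn and Kcnk had medians of 1.55, 1.55 and 1.58%. These 9 subfamilies thus stood in a lower block of 5 and an upper block of 4, grouped after the medians were seen, and all 20 pairs between the blocks kept 1 order in each of the 12 libraries, mutant and WT. Within the blocks only 2 further pairs did so, Kcna below Kcnq and Kcnb below Kcnq. Kcna had the lowest median of the 9 in 8 of 12 libraries, and Kcnj the highest in 7, with Kcnk highest in 3 and Kcnn in 2.

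**Figure D1:**
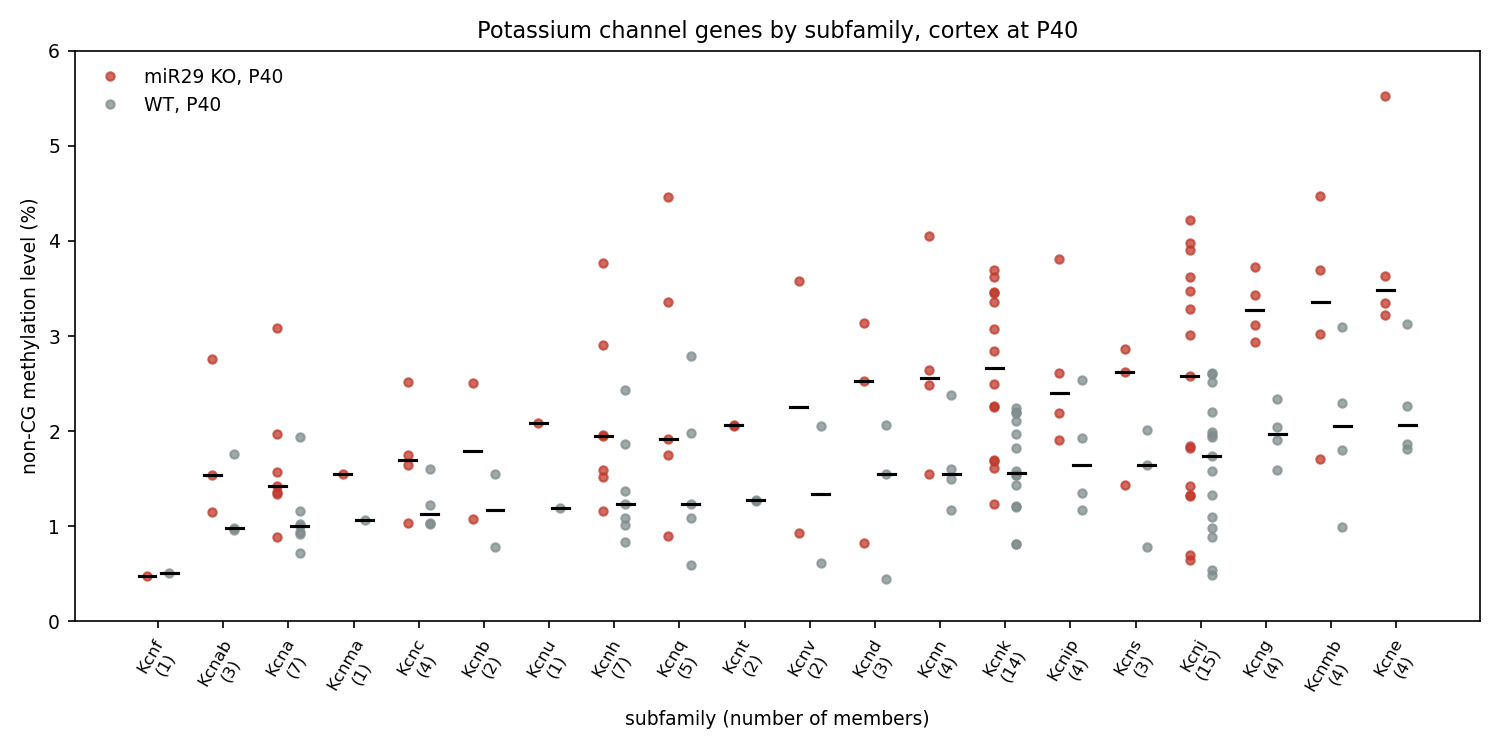
Mean non-CG methylation level (%) of each member in miR29 KO and WT cortex at P40, by subfamily, with 4 libraries a group; each point is a gene and black lines are medians. Subfamilies run by their WT median, Kcnf lowest and Kcne highest, and members of 1 subfamily differ several-fold.

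Outside these 9, the auxiliary Kcne genes had the highest of the 20 subfamily medians in 9 of 12 libraries, and Kcnf1, the only member of its subfamily and a silent subunit, was lowest in all 12. By role, the P40 WT medians were 1.16 ± 0.0840% for voltage-gated pore subunits, 1.74 ± 0.119% for silent modifier subunits, 1.73 ± 0.179% for inward rectifiers, 1.58 ± 0.181% for tandem pore channels, 1.30 ± 0.182% for calcium- or sodium-activated channels and 1.84 ± 0.217% for auxiliary subunits (SD over 4 libraries). Kcnu1 was counted in the calcium- or sodium-activated group, though neither ion opens its channel. A subfamily of few genes is set by those genes, so no test was made on these medians.

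**Figure D2:**
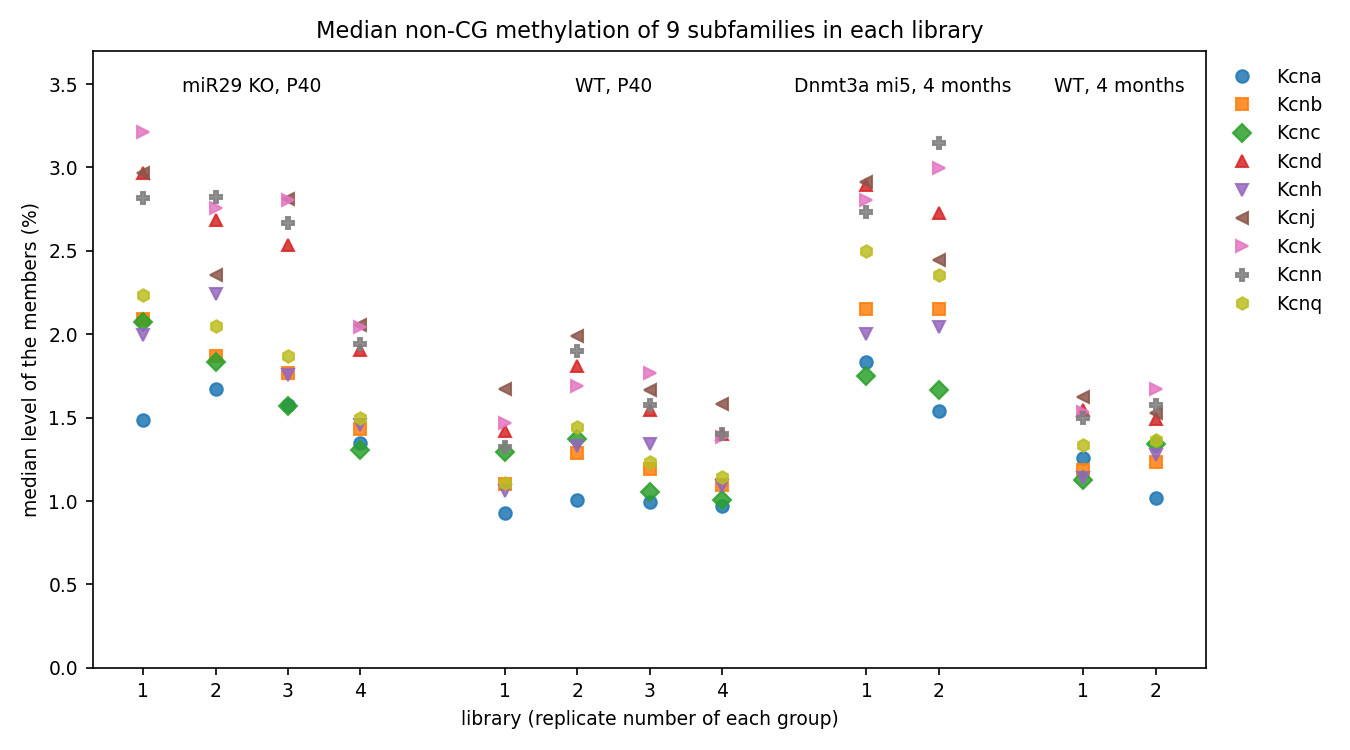
Median non-CG methylation level (%) of the members of 9 pore subfamilies in each of the 12 libraries, grouped by genotype and age, with each symbol a subfamily. Kcnd, Kcnj, Kcnk and Kcnn lie above Kcna, Kcnb, Kcnc, Kcnh and Kcnq in every library, and all subfamilies are lower in the fourth KO library than in the other 3.

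Within several subfamilies the genes differed more than the subfamily medians did. Kcnq3, a subunit of the neuronal M current, averaged 1.75 ± 0.220% in KO and 1.08 ± 0.0856% in WT at P40 (SD, n = 4 each). The A-type channels, which open and inactivate fast below spike threshold, differed widely. Kcnd1 was the lowest member in WT, with 0.756, 1.11, 0.853 and 0.579% in KO and 0.491, 0.447, 0.609 and 0.252% in WT. Kcnd3 averaged 3.13 ± 0.400% in KO and 2.07 ± 0.216% in WT, 4.60 times Kcnd1 in WT, and Kcnd2, the main dendritic A-type subunit of pyramidal neurons, averaged 2.52 ± 0.447% in KO and 1.54 ± 0.187% in WT (SD, n = 4 each). Among the Kcnh genes, Kcnh2 stood at 2.91 times Kcnh3 in P40 WT. Among the large-conductance channel partners, Kcnmb1 stood at 3.13 times Kcnmb4. Whether the level went with the tissue in which a gene is known to act was not tested. Kcnd3 and Kcnd1, Kcnh2 and Kcnh3, and Kcnmb1 and Kcnmb4 are the highest and lowest of their subfamilies by mean P40 WT level. Their order in the P40 WT libraries was thus partly set by that choice. Each of these pairs kept its order in 12 of 12 libraries. The sodium-activated Kcnt1 and Kcnt2 did not, with Kcnt1 higher in 5 of 12.

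Low in WT at P40 were Kcnd1 at 0.450%, Kcnj9 at 0.492%, Kcnf1 at 0.511% and Kcnj11 at 0.539%. High in WT were Kcne4 at 3.13%, Kcnmb1 at 3.10%, Kcnj15 at 2.61% and Kcnj12 at 2.60%. The order is graded: 0 of 89 neighbouring members in it had WT libraries that did not overlap. Across the 90 members the mean P40 WT and 4-month WT levels had a Spearman rho of 0.939, against 0.946 over all genes tested, and mean calls and P40 WT level had one of 0.163. Genes share libraries and are not independent replicates.

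The comparison of miR29 KO with WT at P40 asked whether loss of miR-29 went with a change of mCH over these genes. In KO cortex, 77 of the 90 members rose and 0 fell (adjusted p under 0.05, a quasi-binomial test of the calls moderated with limma, Benjamini-Hochberg over 19826 genes). Over all genes tested, 76.5% rose and 0.0454% fell, against 85.6% of the members that rose. The members also had more calls, with a median of 18275 against 11244 in the mean library. Their median P40 WT level was 1.47%, against 1.31% for all genes tested. The part of depth and level in this difference was not tested. No member fell at an unadjusted p under 0.05 (0 members), and limma on log2 levels gave 78 rises and 0 falls. The median member had 2.32 ± 0.337% in KO and 1.47 ± 0.151% in WT (SD over 4 library medians each). The median log2 odds ratio, the log2 of the odds of a methylated call in KO over those in WT, was 0.67 in the members and 0.65 in all genes tested. The log2 odds ratio was above 0 for 88 members and 95.9% of all genes. Every KO library lay above every WT library for 63 members, and the same held for 57.1% of all genes. In bulk cortex, a change in the share of cell types and a change of level within cells cannot be told apart. Leaving out each P40 library in turn kept 72 of the 77 calls; among those lost at least once were Kcna4, Kcnh3, Kcnh4 and Kcnv1, and without the 4 libraries low in Y-linked genes 71 members were called.

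In KO 24 of the 28 voltage-gated pore subunits rose (median log2 odds ratio 0.66). This count and those by role below stand beside 76.5% of all genes that rose, with a median of 0.65. All 7 Kcnh genes, all 3 Kcnd genes and 4 of 7 Kcna genes rose. Their median log2 odds ratios were 0.66, 0.73 and 0.64, at median calls of 18167, 135661 and 5247, and the part of depth was not tested. Kcna6, a shaker-type subunit, had 1.81, 1.70, 1.44 and 1.34% in KO and 0.839, 1.01, 0.951 and 0.973% in WT, so the 2 groups did not overlap (log2 odds ratio 0.76 ± 0.15 SE, adjusted p = 0.00028). Kcna1 and Kcna2, the subunits that hold axons back from repetitive firing, did not pass: Kcna2 had 0.879, 1.12, 0.583 and 0.983% in KO and 0.551, 0.876, 0.886 and 0.585% in WT, and the groups overlapped (0.32 ± 0.23, adjusted p = 0.22).

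Of the 10 silent modifier subunits, which form no channel alone, 8 rose, with a median log2 odds ratio of 0.74. Kcng1 had the largest value of all 90 members: it had 3.58, 3.10, 2.89 and 2.89% in KO and 1.69, 1.62, 1.59 and 1.45% in WT (0.99 ± 0.15, adjusted p = 5.7e-05). Its 2 groups stood far apart, with the lowest KO library above the highest WT library. Kcnf1 had 0.830, 0.172, 0.387 and 0.508% in KO and 0.543, 0.405, 0.526 and 0.569% in WT, with a log2 odds ratio of -0.10 ± 0.40 at a mean of 2677 calls. Kcnv2, a subunit of photoreceptors, averaged 3.58 ± 0.828% in KO and 2.06 ± 0.297% in WT, and Kcnv1 averaged 0.930 ± 0.161% in KO and 0.613 ± 0.134% in WT (SD, n = 4 each). Both Kcnv genes rose. Kcns3 rose by 0.83 ± 0.13 on the log2 odds scale and Kcns2 by 0.91 ± 0.23, while Kcns1 did not pass, with 0.37 ± 0.19 and an adjusted p of 0.087.

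Of the 15 inward rectifiers, 11 rose, with a median log2 odds ratio of 0.60. Kcnj10, the main potassium-buffering channel of astrocytes, had 3.63, 3.33, 3.02 and 2.06% in KO and 1.82, 2.20, 2.34 and 1.41% in WT, so that the fourth KO library lay among the WT libraries (0.67 ± 0.16, adjusted p = 0.00089). Among the G protein-gated subunits, which slow neurons on transmitter signals, Kcnj3, Kcnj5 and Kcnj6 rose by 0.54, 0.78 and 0.47, and Kcnj9 did not pass, with 0.52 ± 0.25 and an adjusted p of 0.064. Kcnj2, a classical strong rectifier, had 1.86, 1.84, 1.93 and 1.73% in KO and 1.89, 1.60, 1.24 and 1.58% in WT. Its highest WT library stood within the KO range, and its log2 odds ratio was 0.21 ± 0.15 (adjusted p = 0.20). Kcnj11, the pore of the ATP-sensitive channel of neurons and beta cells, had 0.24 ± 0.37 and Kcnj13 had 0.28 ± 0.24, neither past the threshold.

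Of the 14 tandem pore genes, which carry leak currents, 13 rose, with a median log2 odds ratio of 0.67. Kcnk10, a channel opened by stretch and lipids, had 3.42, 2.87, 2.92 and 2.14% in KO and 1.31, 1.69, 1.81 and 1.35% in WT, with no overlap (0.92 ± 0.14, adjusted p = 5.8e-05). Kcnk7 rose by 0.98 ± 0.27 and Kcnk18, known from sensory neurons, by 0.91 ± 0.17. The gene that did not pass was Kcnk15, with 0.51 ± 0.24 and an adjusted p of 0.054.

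Of the 8 genes grouped as calcium- or sodium-activated, Kcnu1 among them, 7 rose, with a median of 0.72. Kcnma1, the pore of the large-conductance calcium-activated channel, had 1.77, 1.66, 1.59 and 1.19% in KO and 1.01, 1.21, 1.10 and 0.958% in WT (0.55 ± 0.15, adjusted p = 0.0022). Only the fourth KO library reached into the WT range. Among the small-conductance channels, which shape the pause after a spike, Kcnn2 rose by 0.85 ± 0.13 and Kcnn3 by 0.81 ± 0.11, and Kcnn1 did not pass, with 0.42 ± 0.20 and an adjusted p of 0.062. Kcnu1, known from sperm, rose by 0.82 ± 0.14, and Kcnt1 and Kcnt2 both by 0.72.

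Of the 15 auxiliary genes, 14 rose, with a median of 0.71. All 4 Kcne, all 4 Kcnip and all 4 Kcnmb genes rose. Kcne4, the member with the highest level, had 5.77, 5.69, 4.64 and 6.00% in KO and 2.52, 3.44, 3.40 and 3.17% in WT (0.86 ± 0.16, adjusted p = 0.00014), and its groups did not overlap. Kcnip4, a calcium-binding partner of the A-type channels, rose by 0.72 ± 0.14. Kcnab2, a cytoplasmic beta subunit of the Kcna channels, did not pass: it had 1.23, 1.30, 1.05 and 1.03% in KO and 0.941, 1.06, 0.910 and 1.03% in WT (0.24 ± 0.14, adjusted p = 0.13). Kcnab2 had 49074 calls in the mean library, the most among the 13 members that did not pass.

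The 13 uncalled members had a median of 5247 calls and a median P40 WT level of 1.02%, against 22944 calls and 1.59% for the 77 that rose. Depth and level therefore moved with the calls, and their part was not tested. When members were split into 3 sets of 30 by the 4-month WT level, which the P40 libraries do not enter, 20, 27 and 30 of them rose at P40 from the lowest to the highest set, with medians of 0.57, 0.68 and 0.72 on the log2 odds scale and with median calls of 8876, 24079 and 21131. In 3 sets of all genes made the same way, 43.0, 90.6 and 95.9% rose, with medians of 0.47, 0.69 and 0.70, so the same order held over all genes.

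A second quantity, added after the data were seen, was the change relative to the shift common to all genes, obtained with the median logit of each library as an offset. On this scale 3 members stood higher than the shift and 5 lower in KO at P40, as did 1.04% and 3.55% of all genes tested. Kcnab2 stood at -0.45 ± 0.08 (limma-moderated adjusted p = 0.0023) and Kcnip3, a calcium-binding protein that also acts in the nucleus, at -0.23 ± 0.05 (adjusted p = 0.0075). Kcnj6 stood at -0.22, Kcnh1, an ether-a-go-go channel, at -0.19 and Kcnma1 at -0.13. Kcnk10 stood at 0.24 ± 0.06 (adjusted p = 0.019), Kcnn2 at 0.16 ± 0.03 (adjusted p = 0.0072) and Kcnn3 at 0.12 ± 0.03 (adjusted p = 0.041). Kcnip3, Kcnj6, Kcnh1 and Kcnma1 rose less than the median gene, and Kcnab2 showed no rise of its own past the threshold. Kcnab2, Kcnip3 and Kcnn2 passed with any of the 8 P40 libraries left out, Kcnab2 and Kcnn2 also without the libraries low in Y-linked genes. The other 5 lost the call without at least 4 of the 8 libraries, and limma on log2 levels with each library centred on its median called 0 members, with 5 above and 8 below at an unadjusted p under 0.05.

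**Figure D3:**
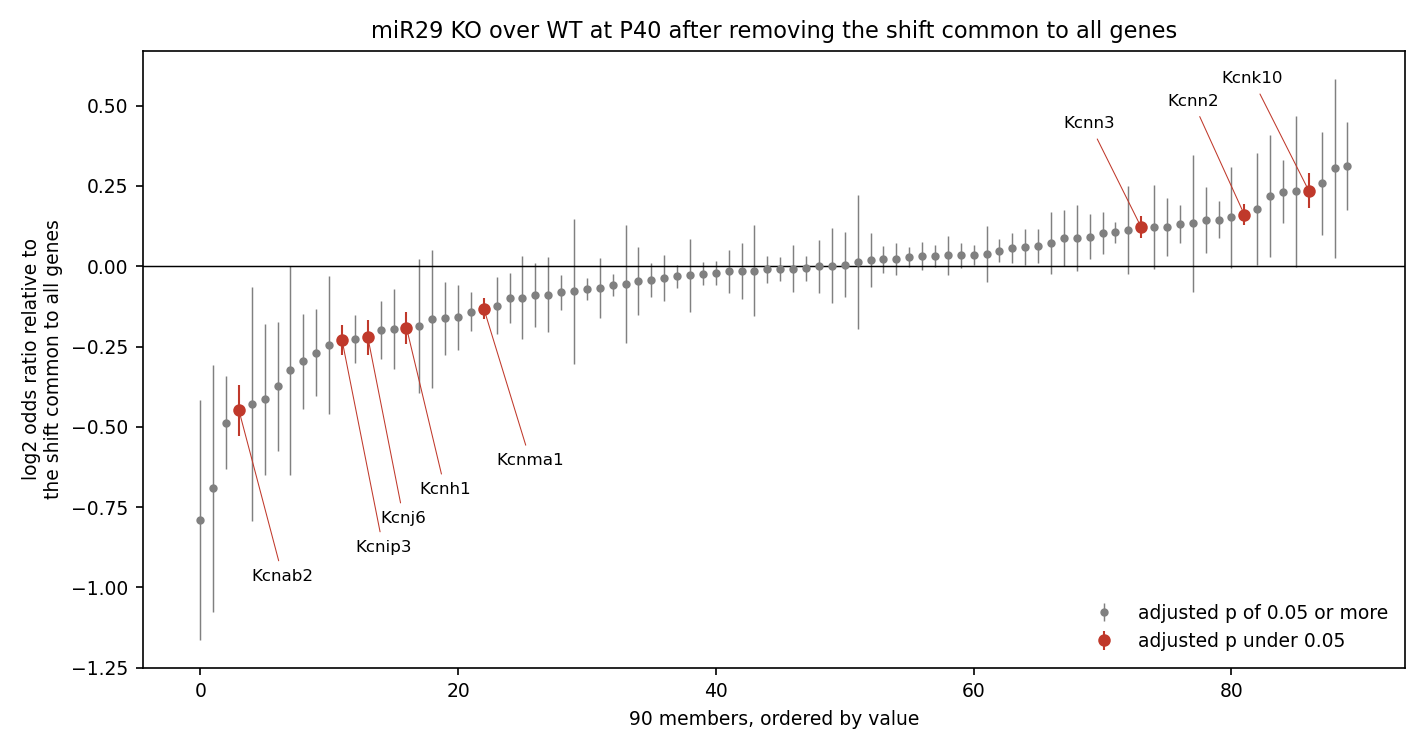
Log2 odds ratio of miR29 KO over WT at P40 relative to the shift common to all genes, for the 90 members in order of value; bars are standard errors, and red points have an adjusted p under 0.05. Kcnab2 lies at -0.45 and Kcnk10 at 0.24, and 8 of the 90 members have red points.

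At 4 months the comparison of Dnmt3a mi5 with WT asked the same of mice whose label names Dnmt3a and whose title names miR-29. In mi5 cortex 61 of 90 members rose and 0 fell, against 58.8% and 0% of all genes tested (the same limma-moderated test). No member fell at an unadjusted p under 0.05 (0 members), and limma on log2 levels gave 73 rises and 0 falls. The median member had 2.67 and 2.62% in the mi5 libraries and 1.42 and 1.41% in the WT libraries. Log2 odds ratios had a median of 0.85 in the members and 0.83 in all genes, and 88 members had one above 0, as did 95.9% of all genes. Both mi5 libraries lay above both WT libraries for 82 members, and the same held for 86.2% of all genes. With 2 libraries a group the calls lean on single libraries: 32 members were called without the first WT library, 37 without the second, 46 and 48 without the first or second mi5 library, and 28 of the 61 whichever library was left out. Relative to the common shift 0 members were called in mi5, and 0% of all genes were called higher and 0.0353% lower. At an unadjusted p under 0.05, 5 members stood higher and 4 lower, as did 3.06% and 6.09% of all genes. Without the 4 libraries low in Y-linked genes, which leaves 1 library a group here, 0 members were called.

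Over 3 sets of 30 members by the P40 WT level, 10, 23 and 28 rose in mi5 from the lowest to the highest set, with medians of 0.65, 0.94 and 0.89 on the log2 odds scale and median calls of 8331, 24079 and 21238. In 3 sets of all genes made the same way, 20.3, 69.5 and 86.5% rose, with medians of 0.62, 0.86 and 0.90. By role, 15 of 28 voltage-gated pore subunits, 6 of 10 modifiers and 9 of 15 inward rectifiers rose in mi5. So did 10 of 14 tandem pore genes, 8 of 8 genes grouped as calcium- or sodium-activated and 13 of 15 auxiliary genes. The largest values were those of Kcne4, with 5.66 and 8.62% in mi5 and 3.63 and 2.49% in WT (1.32 ± 0.31, adjusted p = 0.0034), Kcne2 (1.17 ± 0.41), Kcns1 (1.13 ± 0.40), Kcnj1 (1.13 ± 0.27) and Kcnk12 (1.12 ± 0.25), and all 5 rose. Kcne4, Kcne2 and Kcns1 had 1755, 3219 and 4291 calls in the mean library. Each of them lost its call with at least 1 of the 4-month libraries left out, while Kcnj1 and Kcnk12 kept theirs whichever library was left out. Kcnj1, a kidney channel, had 4.28 and 3.89% in mi5 and 1.997 and 1.81% in WT. Small values were those of Kcnf1 (-0.17 ± 0.67), Kcnj2 (0.01 ± 0.26), Kcnj4 (0.14 ± 0.35) and Kcna7 (0.29 ± 0.47), none past the threshold. Kcnj2 had 1.53 and 1.65% in mi5 and 1.64 and 1.53% in WT, so its libraries interleaved. Of the 7 Kcna genes only Kcna6 and Kcna10 were called, where 58.8% of all genes rose. The 7 had a median log2 odds ratio of 0.64 at a median of 5247 calls. Kcnc2, a channel of fast-spiking interneurons, rose with 2.70 and 2.64% in mi5 and 1.35 and 1.38% in WT (0.99 ± 0.22, adjusted p = 0.003).

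In both mutants together, 58 members rose in each, 19 in miR29 KO only, 3 in mi5 only (Kcnj13, Kcnn1 and Kcns1) and 10 in neither. Of all genes tested, 56.7% rose in both, 19.8% in KO only, 2.01% in mi5 only and 21.5% in neither. Among the 10 were Kcna1, Kcna2, Kcna5, Kcnab2, Kcnf1, Kcnj2, Kcnj9, Kcnj11 and Kcnk15. Being called in 1 mutant and not the other is no difference between them. The difference itself, the mi5 change minus the KO change, was called for 0 of 90 members and for 0% of all genes by the limma-moderated quasi-binomial test. At an unadjusted p under 0.05 it held for 0 members in that test and for 3 by limma on log2 levels, which also called 0 after adjustment. The members with the smallest p-values were Kcnk9 (0.61 ± 0.30 SE), Kcnj6 (0.50 ± 0.25) and Kcnk12 (0.53 ± 0.28), each with the larger value in mi5. Kcnk9, an acid-sensitive leak channel, had 2.21 and 1.93% in mi5 and 0.996 and 0.947% in 4-month WT, and 1.69, 1.93, 1.76 and 1.40% in KO and 1.05, 1.48, 1.17 and 1.17% in P40 WT. The mi5 log2 odds ratio was above the KO one for 68 of 90 members and for 15407 of 19826 genes, with median differences of 0.17 and 0.18. Genotype and age cannot be told apart in this contrast. Across members the 2 sets of log2 odds ratios, which share no libraries but 1 fit, had a Spearman rho of 0.368 (n = 90 genes), against 0.393 over all genes.

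**Figure D4:**
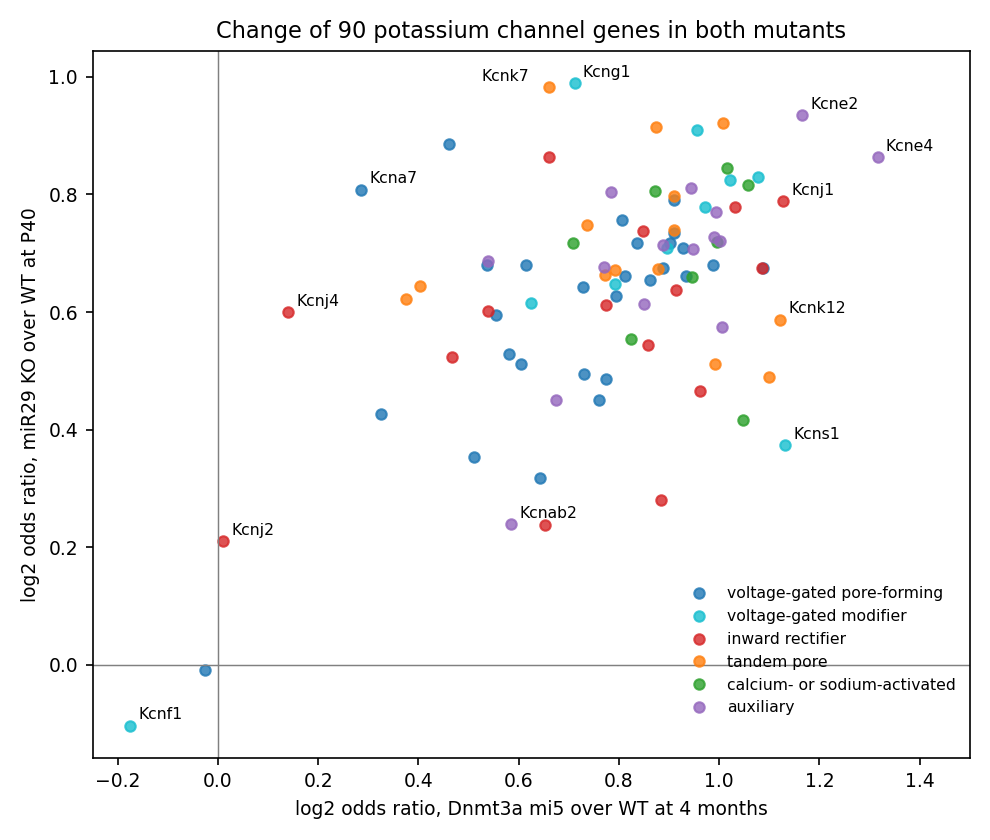
Log2 odds ratio of Dnmt3a mi5 over WT at 4 months (horizontal) and of miR29 KO over WT at P40 (vertical) for the 90 members, coloured by role, with the extreme genes named. All but 2 members lie above 0 on both axes, and Kcnf1 lies lowest on both.

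Between WT at 4 months and WT at P40, 0 members were called by the limma-moderated quasi-binomial test, against 0.131% of all genes that rose and 0% that fell. At an unadjusted p under 0.05 there were 3 members, Kcnj9 (0.77), Kcnk1 (0.54) and Kcns1 (-0.71), and limma on log2 levels called 0, with 2 up and 2 down at an unadjusted p under 0.05. Kcnk1, a weak inward-rectifying leak channel, had 1.13 and 1.25% at 4 months and 0.825, 0.850, 0.833 and 0.751% at P40, without overlap. Relative to the common shift it was 0.64 higher at 4 months (adjusted p = 0.0094), with Kcnma1 and Kcnq5 both 0.23 higher (adjusted p = 0.014 and 0.022), where 1.36% of all genes lay above the shift. Age and mouse line cannot be told apart here, nor can any difference in sequencing run, which the sample titles do not name. These WT libraries also serve the mutant comparisons.

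Several members lie next to each other with no other protein-coding gene between them in the RefSeq gene order, and 5 of 9 such pairs held the same gene higher in all 12 libraries. Kcna10, known from the inner ear and kidney, had 3.87, 3.71, 2.44 and 2.30% in KO and 1.71, 2.27, 1.83 and 1.95% in P40 WT, against the values of its neighbour Kcna2 above, and averaged 2.68 times Kcna2 in P40 WT. Kcnj9, a neuronal G protein-gated subunit, had 0.778, 0.676, 0.709 and 0.630% in KO and 0.386, 0.566, 0.521 and 0.494% in P40 WT. Its neighbour Kcnj10 averaged 3.94 times as much in P40 WT, and no library brought the 2 together. The other pairs were Kcnj15 over Kcnj6 (1.96 times), Kcnj16 over Kcnj2 (1.40 times) and Kcnj1 over Kcnj5 (1.28 times). Kcna10 and Kcnj10 rose in both mutants, and Kcna2 and Kcnj9 were called in neither, but a difference in change between neighbours was not tested. Every Kcnj9 library of each mutant lay above every WT library of its age, while those of Kcna2 overlapped in KO. Kcnj9 had log2 odds ratios of 0.52 in KO and 0.47 in mi5 at 4521 calls in the mean library, against 18382 calls for Kcnj10. Kcnip1 and Kcnmb1, a further pair, overlap each other.

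**Figure D5:**
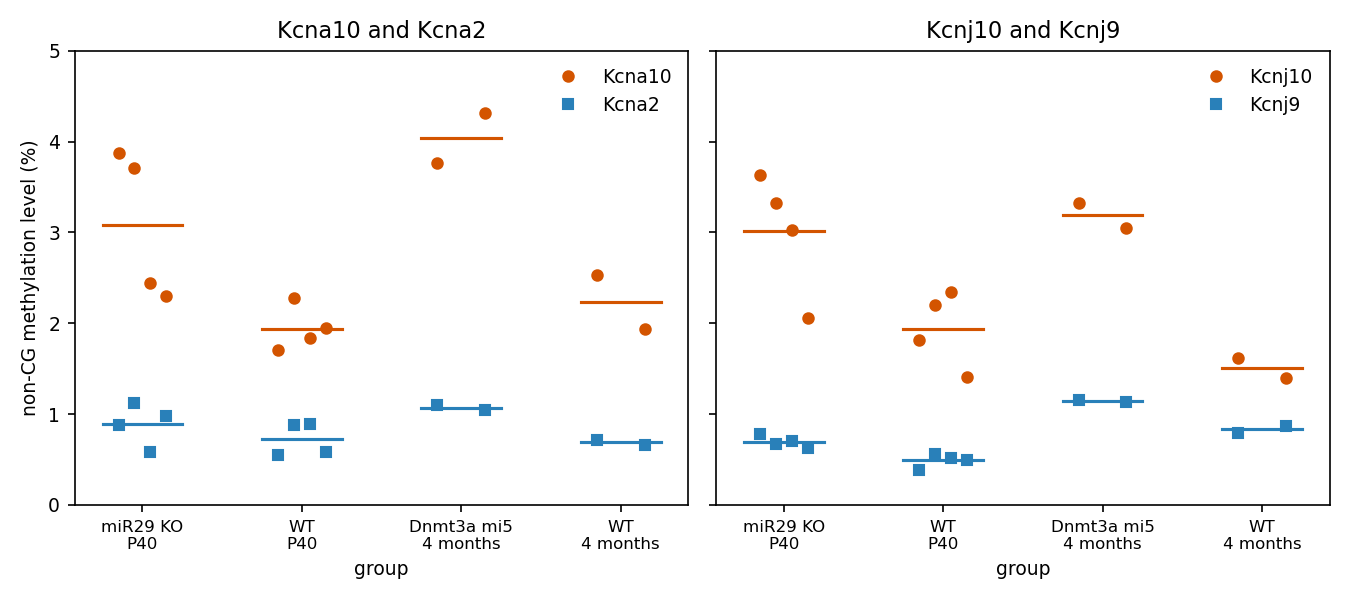
Non-CG methylation level (%) of Kcna10 and its neighbour Kcna2 (left) and of Kcnj10 and its neighbour Kcnj9 (right) in every library of the 4 groups; lines are group means. In each library the neighbour with the higher level is the same gene.

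The 150 bases before the RefSeq start of these 4 genes are shown for context, with each CG in capitals; they come from RefSeq, build GRCm38.p6, while the calls were made on mm9, and the files give no separate value for them. A CG was searched for as the letters CG, which read the same on both strands, and 94.6% of the 300-base start windows of all genes hold at least 1.
Kcna2 (chr3:107101417-107101566, plus strand): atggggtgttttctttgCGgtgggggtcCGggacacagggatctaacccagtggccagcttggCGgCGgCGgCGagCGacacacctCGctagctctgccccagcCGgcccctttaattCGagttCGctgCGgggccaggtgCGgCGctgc
Kcna10 (chr3:107182993-107183142, plus strand): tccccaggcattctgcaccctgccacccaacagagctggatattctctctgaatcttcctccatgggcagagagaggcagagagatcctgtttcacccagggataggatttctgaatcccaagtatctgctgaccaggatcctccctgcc
Kcnj9 (chr1:172329323-172329472, minus strand): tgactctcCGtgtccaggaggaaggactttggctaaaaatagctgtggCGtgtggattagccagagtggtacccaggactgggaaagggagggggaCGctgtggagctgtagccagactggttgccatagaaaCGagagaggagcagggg
Kcnj10 (chr1:172341060-172341209, plus strand): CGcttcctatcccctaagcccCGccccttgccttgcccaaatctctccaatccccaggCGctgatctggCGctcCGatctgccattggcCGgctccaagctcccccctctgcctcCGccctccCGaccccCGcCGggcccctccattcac
Kcna2 has 14 CG in this stretch and Kcna10 has 0, whereas Kcnj9 has 4 and Kcnj10 has 10. These counts describe 4 genes, and no relation between CG content and mCH is drawn from them.

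The partners of potassium channels have symbols outside the Kcn pattern. Of 23 tested partners, 19 rose in miR29 KO (median log2 odds ratio 0.63, against 0.65 over all genes, of which 76.5% rose) and 18 in mi5 (median 0.81, against 0.83 over all genes, of which 58.8% rose). Cntnap2, which clusters Kcna channels along axons, averaged 3.02 ± 0.485% in KO and 1.80 ± 0.222% in WT (SD, n = 4 each; adjusted p = 6.1e-05), and Dpp6, a partner of the A-type channels, rose by 0.68. Amigo1, Dlg3, Dlg4 and the pacemaker channel Hcn2 did not pass in KO. Dlg4, which anchors channels at synapses, averaged 0.587 ± 0.0868% in KO and 0.452 ± 0.104% in WT. As for cell type, 1 of 5 excitatory neuron markers rose in KO (median log2 odds ratio 0.33, median of 6019 calls). In KO 3 of 4 inhibitory neuron, 5 of 5 astrocyte, 5 of 5 oligodendrocyte lineage, 4 of 5 microglial and 4 of 4 vascular markers rose, with medians between 0.60 and 0.78 at 10925 to 29759 calls, where 76.5% of all genes rose. In mi5 1 of 5 excitatory neuron markers rose (median 0.61), and 2 of 4 inhibitory neuron, 5 of 5 astrocyte, 4 of 5 oligodendrocyte lineage, 4 of 5 microglial and 4 of 4 vascular markers. A part of cell type makeup in the members' changes was not tested.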

How the data were processed

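Cortical DNA was bisulfite sequenced in 12 libraries; per the labels' protocols it was sonicated and spiked with unmethylated lambda DNA. BSMAP and mm9 are named in the submitters' processing notes. For each RefSeq transcript the authors deposited methylated calls as a whole-number count and total calls as an expected count, obtained in a way not given in the sources used here. The expected counts were rounded. Each table had 36672 rows; 300 found no symbol in RefSeq GRCm38.p6, used for names and gene order, and 1395 rows with repeated identifiers were left out. Each gene was represented by its transcript with the most calls, and genes with at least 500 calls in every library were tested.

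All 12 libraries entered 1 quasi-binomial logistic fit per gene with the 4 group means, and limma 3.58.1 (squeezeVar, trend and robust) in R 4.3.3 moderated the dispersion. P-values had Benjamini-Hochberg adjustment over 19826 genes at a threshold of 0.05, and the code was tested on simulated data. Tables and plots used Python 3.11.15 with pandas 2.3.3, numpy 2.4.6, matplotlib 3.10.9 and scipy 1.17.1. Wilson intervals cover counting error only.

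Groups came from the labels, which do not say that replicates are separate animals, so the spread behind the p-values is that between these samples and may be technical. Between any 2 libraries of 1 group the per-gene chi-square averaged 2.73 or more, above sampling noise. The members and lists were chosen with earlier results of these data known. Named were, per the rule, the deepest member of each subfamily, every member of subfamilies of 3 or fewer, the extreme members of each comparison and of the WT level, and adjacent genes; other members were named after their values were seen. Some members enter counts and medians but are not reported here by name. A planned look at protein sequences was not run. Alternatives covered scale, pseudocounts of 0.1 and 0.5, centring, background subtraction, minimums of 100 and 2000 calls, moderation, the replicate block, the groups fitted, transcript choice and leaving out libraries.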

Additional observations from a re-analysis of the deposited data

Results flagged for a closer look

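In 7 of 172 groups of 4 libraries, 1 library stood apart from the other 3, measured by its gap over the range. For independent groups chance alone gives about 1 such group in 20, and the count was not above that rate. These groups share libraries and are not independent, so the rate does not settle whether the flags came by chance. The fourth miR29 KO library, the KO library with the lowest mean gene level, was the low one in 5 of the 7. It had 1.90% for Kcnk3, an acid-sensitive leak channel (other KO libraries 2.64 to 2.75%), 0.957% for Kcnn1 (1.66 to 1.80%) and 1.82% for Kcnn4, a channel of blood cells (2.64 to 2.79%). It also had 1.60% for Kcns1 (2.88 to 3.10%) and 1.12% for Kcns2 (1.53 to 1.56%). Among P40 WT libraries, the fourth had 1.98% for Kcne1, a small auxiliary subunit (2.35 to 2.38%), and the second had 2.60% for Kcns1 (1.75 to 1.90%). The KO comparison of Kcns1 did not pass.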

How the results depend on the processing

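Of 2570 values of the 56 members reported by rule under other settings, 2386 kept direction and side of the threshold, 136 lost it, 36 gained it and 12 reversed. The count of rises in miR29 KO stayed between 68 and 82 except under centring and the offset. The 68 came at the minimum of 2000 calls, which leaves fewer members to count. At that minimum 58 were called in mi5, also of fewer members. With each library centred on its median, limma called 0 in KO. With library medians as an offset, 8 were away from the common shift. Centring and the offset ask a different question. For mi5 the count was 0 under centring, 0 with the offset, 0 without the libraries low in Y-linked genes, 32 to 69 with 1 library left out, and 55 to 76 otherwise. The WT age comparison called 2 members under centring (Kcnj9 and Kcnk1) and 3 with the offset. The 8 members away from the shift became 3 to 9 with 1 library left out and 2 without the libraries low in Y-linked genes.

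With the replicate block, 79 members were called in KO, 62 in mi5 and 0 for their difference. Same-numbered P40 libraries deviated with correlations of -0.011, -0.040, -0.054 and 0.109, with each library centred on its median. Centring removes a pair effect on a whole library, so these values cannot settle whether the numbers pair the samples.

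Reversed values belong to members not called in the comparison, and are log2 odds ratios except under background subtraction. With 1 library left out, the mi5 values ran from -0.015 to 0.899 for Kcna1, -0.038 to 0.674 for Kcna7, -0.526 to 0.291 for Kcnf1 and -0.049 to 0.064 for Kcnj2, and the KO values from -0.555 to 0.191 for Kcnf1 and -0.068 to 0.361 for Kcnj11. Without the libraries low in Y-linked genes, the mi5 values were -0.086 for Kcna1, -0.051 for Kcna7 and -0.018 for Kcnv1. With background subtracted, Kcnj2 had a difference in log2 level of -0.028 between mi5 and WT by limma.

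With the calls of a subfamily pooled, P40 WT levels were 1.09% for Kcna, 1.42% for Kcnb, 1.45% for Kcnc and 1.42% for Kcnq, and mi5 log2 odds ratios 0.90 for Kcnb, 0.93 for Kcnc, 0.86 for Kcnd and 0.94 for Kcnh. Kcna was 0.934% at a minimum of 100 calls, and Kcnd in mi5 was 0.78 with the transcript of second depth. With 1 library left out, mi5 medians ran from 0.79 to 0.87 for Kcnb, 0.73 to 0.80 for Kcnh, 0.78 to 0.84 for Kcnj, 0.83 to 0.89 for Kcnk and 0.94 to 1.01 for Kcnn. The cause of these shifts was not tested. The members not called in KO had a median of 5247 calls, and the part of depth was not tested.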
